A study of Brassica napus with 8 samples.

Results

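The genes described here were found at a moderate level in seed of 50 DPA of rapeseed (Brassica napus), cultivar Zhongshuang 11. In 3 other tissues they stayed below a low limit, with few or no reads. They were chosen by their levels in the deposited normalized table of all 4 tissues. A gene had to reach at least 2 in both libraries of 50 DPA seed, with a mean below 500, and to stay below 1 in each of the 6 other libraries. The unit is CPM, counts scaled to a common library size, on library totals scaled by TMM, the trimmed mean of M values. Of 106059 gene IDs, 1005 passed these thresholds, and the 200 with the highest mean were taken, 19.9% of those that passed. These 200 are called 50 DPA genes below.

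Polyadenylated RNA was sequenced from 50 DPA seed, dry seed, seed after 48 h of germination and young leaf, with 2 libraries of each. The label DPA is the usual abbreviation of days post anthesis, the time since the flower opened. The labels name no treatment or mutant. Per the labels, organs of economic value came from plants on an experimental farm and vegetative tissues from greenhouse plants, so organ and growth place cannot be told apart where both differ. Nothing in the labels ties a library to a plant or harvest of its own, so p-values measure the spread between libraries, which may be technical. Library totals ran from 27635445 counts in dry seed to 55721357 in germinating seed. A level of 1 stood for 23.6 and 25.4 counts in the 50 DPA seed libraries, and for 24.1 to 73.2 counts in the others.

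As background, a rapeseed embryo fills most of the seed once the early endosperm has been used up, and its cells then lay down oil and storage proteins. Late in maturation the seed turns to tolerance of drying, transcription falls, and part of the RNA made by then is kept in the dry seed. Germination replaces this stored RNA with transcripts for growth and for the use of reserves, and a young leaf mostly expresses genes of photosynthesis. RNA that is present during maturation and gone from dry seed is therefore a known class in seed biology. The rapeseed genome joins an A subgenome from a turnip-like parent with a C subgenome from a cabbage-like parent, so most genes have a near copy in the other subgenome. The files do not pair gene IDs with names or products, and 0 of 106059 IDs matched the gene table at hand, which describes another assembly. The 50 DPA genes are therefore described by ID, with no product, sequence or coordinate, and the tissues could not be checked against marker genes. The subgenome and chromosome are read from the prefix of the ID.

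The 50 DPA genes took 1.01% of the counts of 50 DPA seed library 1 and 0.944% of those of library 2. Their levels added up to 14465 and 13587 in these libraries. Dry seed gave sums of 16.7 and 13.7. The sums were 24.6 and 25.2 in germinating seed, and 24.6 and 25.1 in young leaf. The sum in 50 DPA seed was 921 times that in dry seed, 562 times that in germinating seed and 564 times that in leaf. These ratios describe how the genes were chosen. In bulk RNA, fewer cells of a type and less RNA per cell cannot be told apart.

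**Figure D1:**
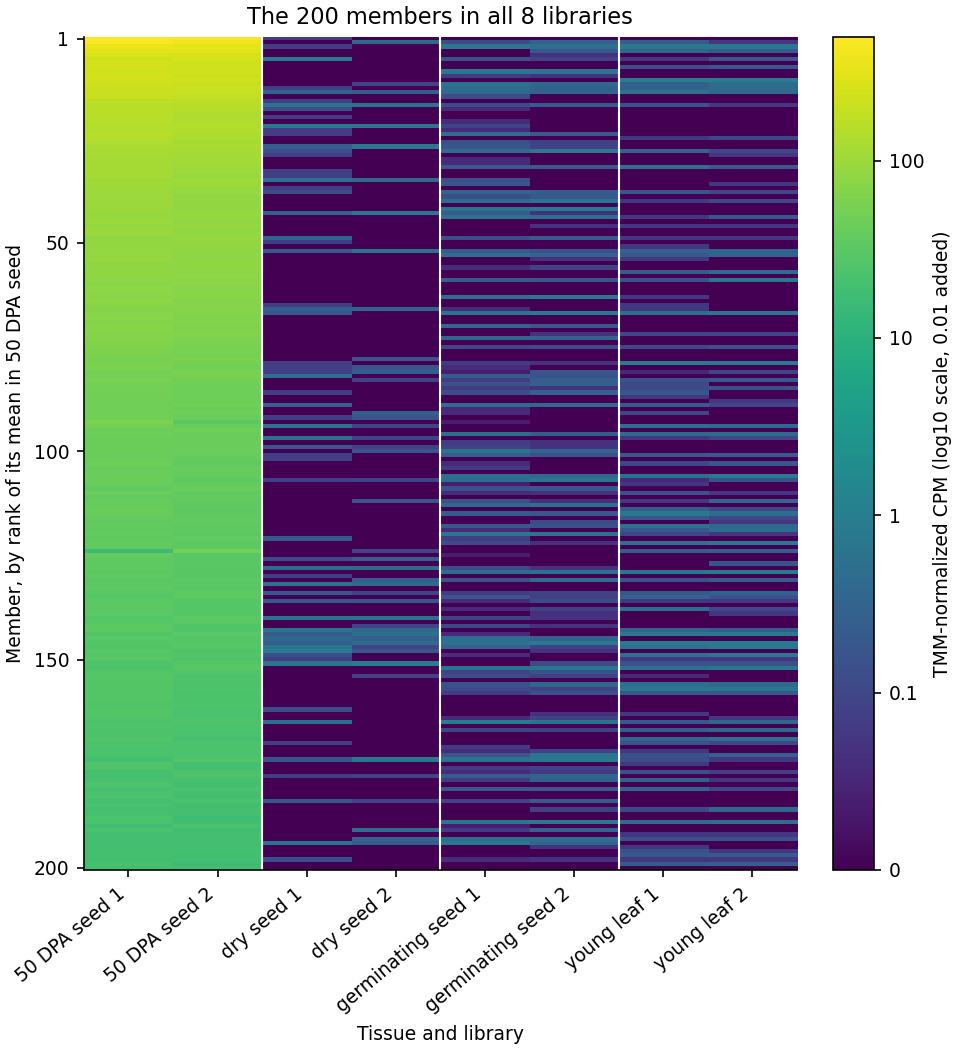
Level of each of the 200 genes (rows, ordered by mean in 50 DPA seed) in each of the 8 libraries (columns), as TMM-normalized CPM on a log10 colour scale with 0.01 added. Both 50 DPA seed columns run from bright at the top to green at the bottom, and the 6 other columns are dark with scattered faint rows, all below 1.

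Levels in 50 DPA seed were uneven within the set. The mean level was 19.1 in the lowest gene, 42.1 at the median and 495 in the highest. The lower and upper quartiles stood at 27.6 and 86.5. A mean of at least 100 was found in 36 genes and one of at least 200 in 14, whereas 116 genes lay below 50. The first 10 genes held 21.7% of the summed level and the first 50 held 57.9%.

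The most abundant was ZS11A02G040840, at 528 and 463 CPM in 50 DPA seed (495 ± 46.3, SD, n = 2). It had 2 and 0 counts in the dry seed libraries and no count in germinating seed or leaf. Against the floor of 6 counts per library, its level was at least 5206-fold higher than in germinating seed and at least 3586-fold higher than in leaf. The floor stands for 3 read pairs, since most counts were even, and it covers counting error only. ZS11C09G067570 followed at 463 and 377 CPM in 50 DPA seed. It had 0 and 10 counts in dry seed, 8 and 16 in germinating seed and 10 and 2 in leaf. Thus the leading pair differed outside 50 DPA seed: one was nearly without reads, the other left a few in each tissue.

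ZS11C05G010520 stood at 366 and 343 CPM in 50 DPA seed. Its levels were 0.06 and 0 in dry seed, 0.74 and 0.54 in germinating seed and 0.75 and 0.72 in leaf. The trace was thus even across the germinating seed and leaf libraries and missing from dry seed library 2. ZS11A04G002400 had 322 and 326 CPM in 50 DPA seed and no count in dry seed, so it was at least 1477-fold higher in 50 DPA seed. It had 0 and 10 counts in germinating seed and 16 and 10 in leaf. ZS11C05G017200 had 275 and 261 CPM and no count in dry seed or leaf. In germinating seed it had 0 and 2 counts. ZS11C01G052810 had 231 and 265 CPM in 50 DPA seed. Its 28 counts in dry seed all lay in library 1, with 0 in library 2, so the libraries of that tissue do not bear each other out.

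At the middle of the ranking, ZS11A06G004500 had 43.3 and 42.2 CPM in 50 DPA seed and ZS11C02G011260 had 42.0 and 41.0 CPM. The last genes taken were ZS11C01G042960, at 21.3 and 16.9 CPM, and ZS11C04G055360, at 19.5 and 18.6 CPM. Just below them, ZS11A09G007220 had 17.9 and 19.9 CPM and ZS11A09G010920 had 19.8 and 17.9 CPM. The ranges of these genes overlap, so the end of the list is a line drawn through a continuous series. Beyond it, 805 further genes passed the thresholds, with means from 2.04 to 18.9 and a median of 5.14. The 200 genes held 72.3% of the summed level of all 1005.

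**Figure D2:**
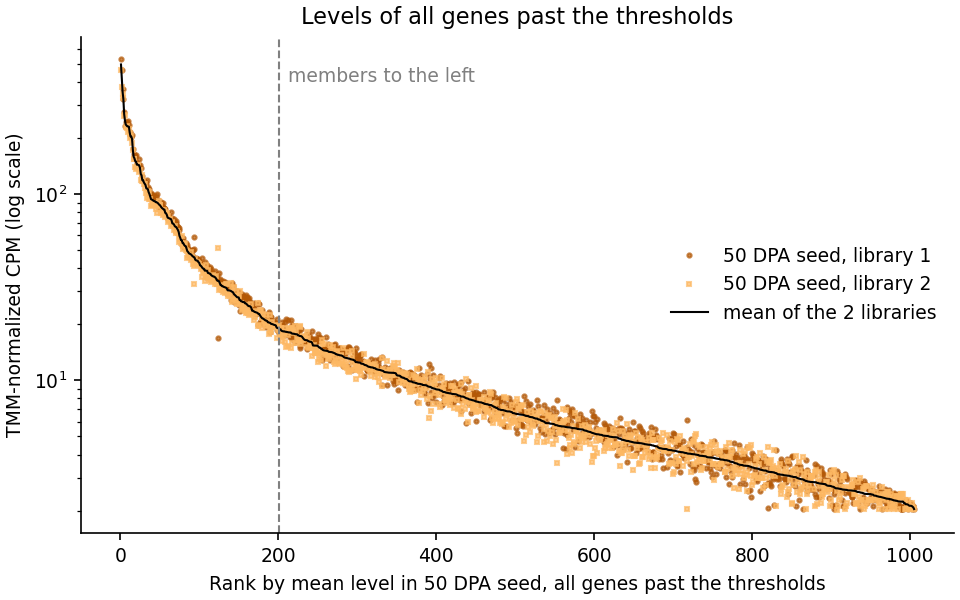
Level in both libraries of 50 DPA seed (points, TMM-normalized CPM, log scale) and their mean (line) for all 1005 genes past the thresholds, ordered by mean. The dashed line marks the last of the 200 genes taken, where the mean is 19.1, and the curve runs through it without a step.

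At the upper limit, 5 genes met every other threshold but had means of 500 or more. These genes, and the one just outside the limit of 1, were named after their values were seen. The lowest of these, ZS11A05G034380, had 586 and 576 CPM in 50 DPA seed. The highest, ZS11C06G001410, had 1384 and 1349 CPM in 50 DPA seed, 0.25 and 0 CPM in dry seed and no count in germinating seed or leaf. At the limit of 1 in the other tissues, 7 of the 200 genes reached 0.9 in some library. The closest to it was ZS11A04G028400, with 56.2 and 52.8 CPM in 50 DPA seed and 0.99 and 0.81 CPM in leaf. Just outside was ZS11C05G013330, with 85.1 and 99.2 CPM in 50 DPA seed and 1.01 and 0.79 CPM in germinating seed. Among genes of the same range in 50 DPA seed, 8 missed the set by a highest value from 1 to below 1.1.

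Few genes of these levels stayed below 1 in all 3 other tissues. In 50 DPA seed, 9248 genes had a mean between that of the lowest 50 DPA gene and 500, with at least 2 in both libraries. The 200 genes are 2.16% of them. Of the 9248, 556 stayed below 1 in both libraries of dry seed (6.01%), 761 in germinating seed (8.23%) and 811 in leaf (8.77%). Below 1 in germinating seed and leaf but not in dry seed were 321 genes. Below 1 in dry and germinating seed but not in leaf were 93, and below 1 in dry seed and leaf but not in germinating seed were 46.

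For completeness, all 200 genes were higher in 50 DPA seed than in dry seed, germinating seed and leaf (edgeR quasi-likelihood test, adjusted p under 0.05, over 59062 genes). Of all genes tested, 33.8%, 29.5% and 30.9% were higher in 50 DPA seed than in dry seed, germinating seed and leaf, in that order. The selection used the same values, so nothing is read from the 200.

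The label "detected only in 50 DPA seed" holds as a threshold and not as an absence of reads. No count in any of the 6 other libraries was found for 38 of the 200 genes. The most abundant of these was ZS11A06G026290, with 244 and 228 CPM in 50 DPA seed. Its level was at least 1077-fold higher than in dry seed, 2481-fold higher than in germinating seed and 1709-fold higher than in leaf, each against the floor. By level, the successive groups of 50 genes held 6, 13, 6 and 13 of the 38. At the other end, 35 genes had at least 1 count in each of the 3 other tissues.

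Dry seed held the fewest reads of the 200 genes. In it, 122 genes had no count in either library, against 76 in germinating seed and 97 in leaf. More than 6 counts in both libraries were found for 13 genes in dry seed, 51 in germinating seed and 38 in leaf. Depth moves these numbers: 6 counts stood for a level of 0.219 in dry seed, 0.0951 in germinating seed and 0.138 in leaf. Summed levels, which depth does not set, were 15.2 ± 2.14 in dry seed, 24.9 ± 0.43 in germinating seed and 24.8 ± 0.33 in leaf (SD, n = 2). The dry seed sums lay below all 4 others. The choice of the genes held each of these values below 1, so the sums and counts only describe what it left. An exact permutation test of 2 against 2 libraries also cannot go below 0.333, so no p is given. Of the 805 lower-ranked genes past the thresholds, 56.4% had no count in dry seed, 28.7% in germinating seed and 34.0% in leaf. The 9048 other genes in the level range of the 200 in 50 DPA seed did not have to stay below 1. Among them the order differed, with 1.14% in dry seed, 0.265% in germinating seed and 2.13% in leaf. Nothing is read from this difference.

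**Figure D3:**
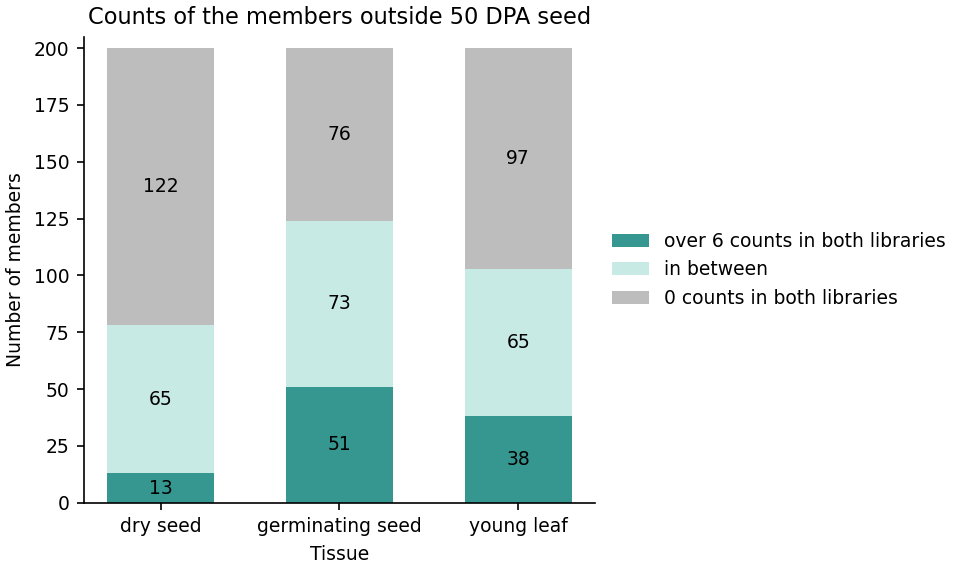
Number of the 200 genes (bars, stacked) with more than 6 counts in both libraries, with 0 counts in both libraries, or in between, in each tissue other than 50 DPA seed. Dry seed has the most genes without counts, 122, and germinating seed the most genes with over 6 counts in both libraries, 51.

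More than 6 counts in both libraries of a tissue were found in no other tissue for 121 of the 200 genes. They were found in germinating seed alone for 31 genes, in leaf alone for 17 and in dry seed alone for 9. Germinating seed and leaf shared 18 such genes, dry seed and leaf 2, dry and germinating seed 1, and 1 gene passed in all 3.

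The traces were also set side by side between the other tissues, with calls from one fit over all genes (edgeR quasi-likelihood test, adjusted p under 0.05). The choice of the genes held all these values below 1, and the genes passed the filter on low counts through 50 DPA seed. The calls are therefore given as a description, with no p for a gene, and nothing is read from their shares against those of all genes, which had no such limit. In dry seed 26 of the 200 genes were higher than in leaf and 49 lower, or 13.0% and 24.5%. Over all genes tested, 30.9% were higher and 46.7% lower. ZS11A06G040810 had 0.98 and 0.75 CPM in dry seed and no count in leaf, at least 6.25-fold higher. ZS11A08G031230 had 0.57 and 0.58 CPM in dry seed and none in leaf. In the other direction, ZS11A03G032510 had no count in dry seed, against 0.94 and 0.95 CPM in leaf, at least 4.30-fold lower in dry seed. ZS11C05G003620 had no count in dry seed, against 0.80 and 0.90 CPM in leaf. The genes named for each pair of tissues are those with the smallest adjusted p, so their separation follows from how they were picked.

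In germinating seed 35 of the 200 genes were higher than in leaf and 35 lower, 17.5% each, against 32.7% and 33.3% of all genes tested. As above, the choice held these values below 1, so nothing is read from the shares. ZS11A09G059830 had 0.77 and 0.69 CPM in germinating seed and no count in leaf, at least 5.25-fold higher. ZS11A02G006260 had 0.63 and 0.83 CPM in germinating seed and no count in leaf. ZS11A03G032510, the leaf trace named above, had no count in germinating seed either, at least 9.92-fold lower than in leaf. ZS11A04G028400 had 0.05 and 0.04 CPM in germinating seed, against 0.99 and 0.81 CPM in leaf. Fewer of the 200 genes were called when any one library of leaf or germinating seed was left out, and fewer over all genes tested as well.

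In germinating seed 45 of the 200 genes were higher than in dry seed and 21 lower, or 22.5% and 10.5%, against 44.9% and 28.5% of all genes tested. The limit of 1 applies here too, and nothing is read from these shares. ZS11A09G059830 was again among the genes named, with no count in dry seed, at least 3.31-fold higher in germinating seed. ZS11A06G006060 had 0.79 and 0.87 CPM in germinating seed and no count in dry seed, at least 3.79-fold higher. Its level in 50 DPA seed was 22.2 and 18.6 CPM, 24.6-fold above its germinating seed level. ZS11A05G010090 had no count in germinating seed, against 0.57 and 0.41 CPM in dry seed. ZS11A03G025880 also had none in germinating seed, against 0.63 and 0.37 CPM in dry seed. Of the calls, the higher ones made up 68.2% under TMM scaling and 78.3% when libraries were scaled by total counts alone. Over all genes tested, 26535 of 43390 calls were higher under TMM and 32775 of 44842 with total counts alone, so the shift was not particular to the set. Without dry seed library 2, more of the 200 genes were lower in germinating seed, while the number over all genes hardly changed.

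The strongest traces of each tissue show how small these levels are. In dry seed they were those of ZS11A06G040810 (above) and ZS11C04G013630, which had 25.5 and 28.5 CPM in 50 DPA seed and 0.70 and 0.91 CPM in dry seed. In germinating seed ZS11A06G006060 was followed by ZS11C09G063470, at 24.1 and 25.6 CPM in 50 DPA seed and 0.96 and 0.65 CPM in germinating seed. In 50 DPA seed ZS11C04G013630 lay 33.6-fold above dry seed and ZS11C09G063470 31.0-fold above germinating seed. By contrast, ZS11A06G040810 had 144 and 143 CPM in 50 DPA seed, 167-fold above its dry seed level, and ZS11A03G032510 had 235 and 224 CPM, 244-fold above leaf. A trace near 1 thus occurred both in weak and in strong 50 DPA genes.

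The libraries of 50 DPA seed mostly gave close values for the set. The median coefficient of variation between them was 5.98%, against 4.69% for the 9048 other genes of the same level range. A difference of over 1.5-fold was found in 2 of the 200 genes (1.0%) and in 10 of the 9048 (0.111%). ZS11C03G040230 had 16.9 CPM in library 1 and 51.4 CPM in library 2, from 400 and 1305 counts. ZS11C09G035950 went the other way, with 58.9 CPM in library 1 and 32.8 CPM in library 2. For ZS11C03G040230, library 1 alone lay below the lowest mean of the set, 19.1, while ZS11C09G035950 lay above it in both libraries. ZS11C04G068300, the next by this measure, had 26.0 and 19.5 CPM.

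The set as a whole leaned to library 1. In it 155 of the 200 genes (77.5%) were higher than in library 2, against 3982 of the 9048 other genes of that range (44.0%). The median log2 ratio of library 1 to library 2 was 0.09 for the set and -0.02 for the others. The lean was seen at all levels, with 84.0% in the first 50 genes and 74.0% in the last 50. Among the 805 lower-ranked genes past the thresholds, 58.1% were higher in library 1. It was 69.9% of the 93 genes low in dry and germinating seed but not in leaf, 60.9% of the 46 low in dry seed and leaf but not in germinating seed, and 52.3% of the 321 low in germinating seed and leaf but not in dry seed. One library a side allows no test, and the cause was not tested.

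**Figure D4:**
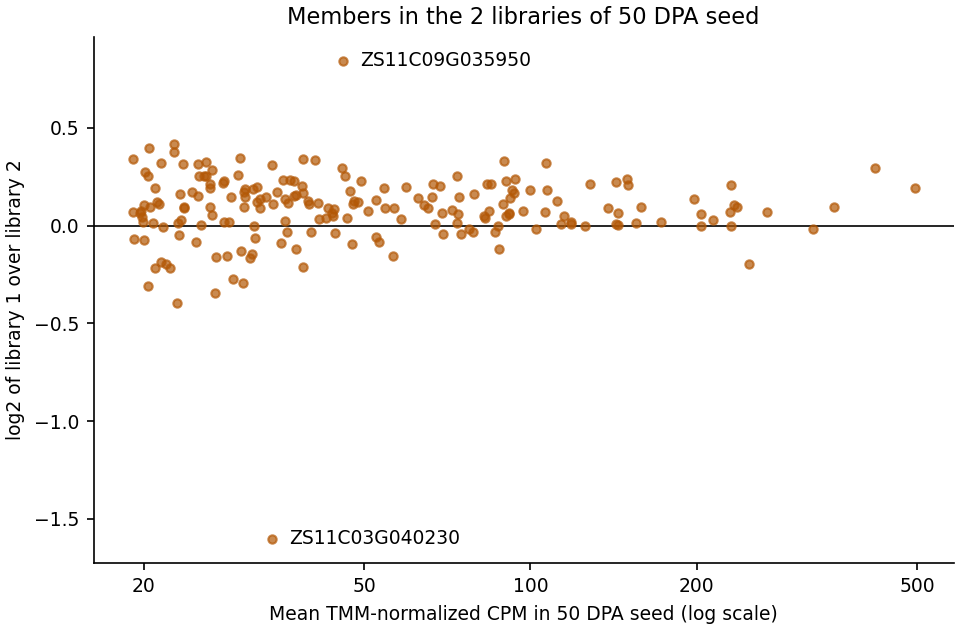
log2 ratio of library 1 to library 2 of 50 DPA seed for each of the 200 genes (points) against their mean level (TMM-normalized CPM, log scale). All but 2 points lie within 0.5 of the line at 0, and 155 of the 200 lie above it, while ZS11C03G040230 lies at -1.60 and ZS11C09G035950 at 0.84.

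The positions of the IDs were not used in the choice. Of the 200 genes, 111 carried an A prefix (55.5%) and 89 a C prefix (44.5%). The A share was 49.8% among the 9048 other genes of the same level range, 52.7% among the 805 lower-ranked genes and 41.8% of all IDs. A and C genes had like levels: the median was 39.7 CPM for A genes and 44.1 CPM for C genes, and A genes held 55.6% of the summed level. A genes made up 27 of the first 50 and 27 of the last 50.

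By chromosome, A03 held 25 of the genes, 12.5% against 7.10% of the other genes of that range, and A06 held 20, against 5.19% of the other genes. A04 held 13, 6.5% against 3.47%. The fewest were on A07, with 2 genes, 1.0% against 4.71%, while C06 and C07 had 4 each. These are counts with no test. Of the 1005 genes past the thresholds, the 200 among them, A06 held 47 (4.68%) and A07 46 (4.58%). The contrast between these chromosomes was thus seen in the top 200 and not in the wider set that includes them. With each chromosome cut into 5 equal parts of its ID order, the outermost parts held 51.0% of the 200 genes, against 44.8% of the other genes of that range.

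**Figure D5:**
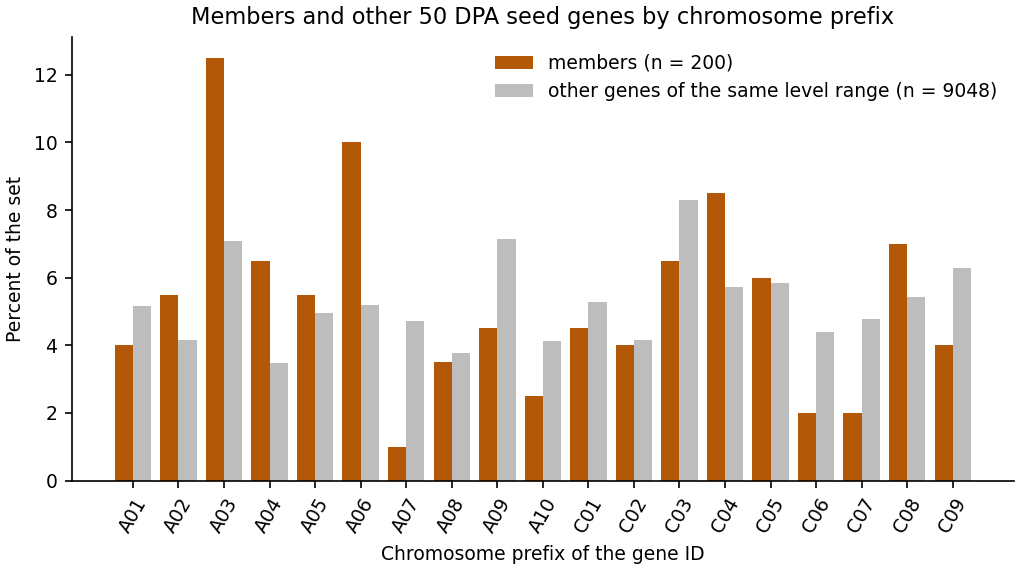
Percent of the 200 genes (orange) and of the 9048 other genes of the same level range in 50 DPA seed (grey) by chromosome prefix of the gene ID. A03 and A06 stand highest among the 200 genes, with 25 and 20 of them, and A07 has the lowest share, 1.0%.

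No 2 of the 200 genes were next to each other in the order of IDs. Of the 1005 genes past the thresholds, 41 (4.08%) stood next to another, in 19 runs of at most 3. Adjacent genes are more likely in a larger set, so the shares are not compared. Within 5 places, 8 of the 200 genes formed 4 pairs, all on A03 and A06. These pairs were named after their values were seen. On A03, ZS11A03G014590 had 21.7 and 21.7 CPM and ZS11A03G014610 had 87.3 and 87.3 CPM in 50 DPA seed. The ID between them, ZS11A03G014600, had reads in all tissues, with 7.70 and 8.82 CPM in 50 DPA seed and 17.5 and 16.5 CPM in germinating seed. A pair elsewhere on A03, ZS11A03G024750 and ZS11A03G024770, had means of 37.4 ± 4.19 and 86.2 ± 1.36 CPM in 50 DPA seed (SD, n = 2), with a nearly silent ID between.

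On A06, ZS11A06G026250 had 84.2 and 91.5 CPM in 50 DPA seed, 4 places from ZS11A06G026290, the most abundant gene without counts elsewhere. Between them, ZS11A06G026260 had 111 and 113 CPM in 50 DPA seed but also 23.9 and 26.0 CPM in germinating seed, so it lay outside the set. The other A06 pair was ZS11A06G040770, at 99.9 and 79.5 CPM in 50 DPA seed and without counts elsewhere, and ZS11A06G040810, the gene with the strongest dry seed trace. The 3 IDs between them stayed below 1 in 50 DPA seed. If such genes are near copies, reads shared between them could move their counts, and the handling of such reads is not given in the sources used here.

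The IDs directly beside the 200 genes numbered 398. Of these, 141 (35.4%) reached 2 in both libraries of 50 DPA seed, against 29.8% of all IDs on chromosomes. Beside the other genes of that range it was 29.7%, but neighbours from the same set were left out. No gene was left out in this way beside the 200. Of the 9048 others, 1966 (21.7%) stood next to another, and all of these reach 2 by choice. The shares beside the others are therefore not like for like. The thresholds of the set were passed by 8 of the 398 (2.01%), against 1.31% beside the other genes and 0.952% of all IDs on chromosomes. No count in 50 DPA seed was found for 34.9% of the neighbours, against 45.2% of all IDs. The share beside the other genes, 41.0%, has the limit given above.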

How the data were processed

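The authors deposited whole-number counts per gene and a TMM-normalized signal for 8 rapeseed libraries. FastQC, SAMtools, HISAT2 and edgeR are named, without versions, per the submitters' processing notes. The read counter, strand setting, genome build and annotation: not given in the sources used here. Within a library, deposited signal and count were in 1 fixed ratio (largest deviation 9.56e-05). A line naming alignment files in the 4-tissue count table was removed. The 3-tissue normalized table, on another scale, was not used.

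The 200 genes and the gene lists were chosen with earlier results of these data known. Levels are the deposited signal. Tests used edgeR 4.0.16 in R 4.3.3 on counts: filterByExpr (59062 genes; all 200 passed, through 50 DPA seed), TMM factors, a quasi-likelihood test with 1 mean per tissue and 1 shared spread, Benjamini-Hochberg adjustment over all genes and a threshold of 0.05. The script was checked on simulated counts. Most counts were even (odd in 18.5% and 22.0% of the 200 genes in the 50 DPA seed libraries), a pattern that arises when both mates are counted, so counts were also halved.

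Genes named were the 6 highest, the middle 2, the last 2 and the next 2, the 3 with the largest ratio between 50 DPA seed libraries, the 2 highest in each other tissue, runs of adjacent IDs (there were none) and the 2 smallest adjusted p per direction in 3 contrasts. Product-name lists could not be applied. Alternatives were DESeq2 1.42.0, its size factors, total counts alone, no filter, a replicate block, halved counts, other thresholds and leaving out each library.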

Additional observations from a re-analysis of the deposited data

How the results depend on the processing

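All 84 alternative counts of called genes over the 6 contrasts lay within 1.5 times the main count. The 168 alternative values of the genes named in the contrasts kept direction and call. This is no test of those genes: they were picked by smallest adjusted p, and most had no count in 1 of the tissues compared. The genes past the thresholds numbered 1005; with at least 5 in both 50 DPA seed libraries there were 573, since that limit only removes genes, and 770 with total counts alone. Leaving out 1 library gave 1022 to 1133, as fewer limits then apply. Of the 200 genes, 188 were also among the highest 200 with total counts alone and 198 with DESeq2 size factors. With the same 1005 genes ranked by 1 library of 50 DPA seed, and the thresholds not applied anew, 194 to 195 stayed among the highest 200. Of the calls among the 200 genes, germinating seed against leaf gave 43 to 79 when 1 library was left out, against 70, with 43 without leaf library 2; a lone library was assumed to vary like the others. Dry seed against leaf gave 63 to 75 and germinating against dry seed 58 to 77. Halved counts gave 64, 59 and 56 of the 200 genes for dry seed against leaf, germinating seed against leaf and germinating against dry seed, against 75, 70 and 66. Over all genes, these contrasts gave 44651, 40205 and 42540 calls of 55458 with halved counts, against 45807, 38974 and 43390 of 59062. With the replicate block, 75, 65 and 65 of the 200 genes were called, and 44258, 36416 and 41637 of all 59062. Deviations from the tissue mean correlated between same-numbered libraries at -0.0086 to 0.0064, so no pairing by number was seen. A shared plant or harvest need not show in this way, so pairing is not excluded. The median log2 change over all genes was -1.07 with total counts alone and -0.59 with TMM for dry seed against leaf, and 1.21 and 0.59 for germinating against dry seed. The share next to another gene of the set was 0.0%, 4.08% over all 1005 genes and 4.0% within 5 places. Set size and distance move this share, so these values are not compared. The lean to library 1, a comparison chosen after seeing the data, was 80.5% of the 200 genes and 46.1% of the other genes of that range with total counts alone, and 80.5% and 48.3% with DESeq2 size factors.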
